A study of Mus musculus with 11 samples.

Results

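The genes described here are the members of the BMP and TGF-beta signalling families, taken by symbol: the BMP, GDF, TGF-beta and activin ligands, their receptors, the Smad proteins, the Id genes and secreted antagonists. The rule matched 57 of the 24421 entries in each sample's table and used no measured value. RNA was sequenced from astrocytes sorted by FACS from the olfactory bulb (OB, 3 samples), hippocampus (HC, 3 samples), cortex (CX, 2 samples) and brainstem (BS, 3 samples). Every sample came from C57BL/6 mice aged 16 weeks, of both sexes and with no treatment named, that carried a bacterial artificial chromosome in which Aldh1l1 regulatory sequence drives eGFP, so that the gate held any cell in which that sequence was active. The sources do not say whether the samples of a region came from separate animals. The p-values then measure only the spread between these samples, and that within a region may be technical.

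BMP, TGF-beta and activin ligands are secreted dimers that bring type I and type II receptor kinases together. The type I receptor then phosphorylates receptor-activated Smads, with Smad1, Smad5 and Smad9 on the BMP side and Smad2 and Smad3 on the TGF-beta and activin side, and these enter the nucleus with Smad4. Id genes are long-known transcriptional targets of BMP signalling, and in the nervous system the pathway is known for promoting astrocyte differentiation and for the response of glia to injury.

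Promoters were available for 39 of the member genes in RefSeq (GRCm38.p6), as 47 windows of 250 bases before a transcript start. Each window was searched on both strands for GGCGCC, a GC-rich element that BMP Smads are known to bind, and for CAGAC, the element known for Smad3 and Smad4, which is read as GTCTG from the other strand. The first was found in 10 of the 47 member windows and in 9.59% of 32851 promoters of that length. The second was found in 21 of the 47 member windows and in 42.2% of those promoters. GGCGCC reads the same on both strands and can share only an end base with the other motif, and a match describes the sequence and is not a bound site. The Id4 and Smad9 windows are shown as examples that hold GGCGCC, from genes that differed between regions. Each window lies before the annotated start of its gene. The windows of Acvr1c, Bmp5, Id3, Inhba and Tgfb2, which also differed across regions, hold no GGCGCC. Both lie on the plus strand, Id4 at chr13:48260866-48261115 with a GC content of 75.6% and Smad9 at chr3:54755332-54755581 with 73.2%, and capitals mark the GGCGCC that each holds.
Id4 promoter: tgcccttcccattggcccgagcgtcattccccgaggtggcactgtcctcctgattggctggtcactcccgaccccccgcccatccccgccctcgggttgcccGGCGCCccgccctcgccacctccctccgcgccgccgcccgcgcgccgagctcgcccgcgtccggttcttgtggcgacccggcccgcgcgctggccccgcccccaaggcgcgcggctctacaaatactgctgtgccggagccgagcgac
Smad9 promoter: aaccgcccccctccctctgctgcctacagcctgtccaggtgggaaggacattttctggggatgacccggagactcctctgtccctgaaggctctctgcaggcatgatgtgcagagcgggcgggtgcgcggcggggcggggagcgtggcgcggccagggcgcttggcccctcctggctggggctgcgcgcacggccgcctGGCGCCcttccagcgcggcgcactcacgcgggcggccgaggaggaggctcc

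A value below is a normalized read count, the reads on a gene divided by a size factor for its sample. Between 2830746 and 14151670 reads per sample fell on genes, a single read was worth 0.367 to 2.10, and the detection floor of 3 reads corresponded to values of 1.10 to 6.31, which covers counting error only. All 10 astrocyte markers were detected, and their summed value was lowest in BS replicate 1 at 97870 and highest in CX replicate 1 at 636418. Markers of other cells differed between regions. The 15 choroid plexus markers, all with reads, summed to 110 to 177 in the OB, where Folr1, Slc4a5 and Tmem72 were at 0. They summed to 1860 to 5265 in CX samples, to 73594 to 149408 in HC samples and to 53306 to 251844 in BS samples. In bulk samples of this kind, fewer cells of a type and less RNA per cell cannot be told apart.

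Of the 57 members, 39 passed the filter on low counts and were tested, among 13875 genes in all. A test across the 4 regions (limma's moderated F-test with Benjamini-Hochberg adjusted p under 0.05) called 8 members, or 20.5% of those tested, against 16.5% of all genes tested. These were the ligands Bmp5, Tgfb2 and Inhba, the receptor Acvr1c and co-receptor Tgfbr3, the signal transducer Smad9 and the targets Id3 and Id4. Each region was then set against the samples of the other 3 pooled. The thresholds followed those that the study set on its own DESeq2 test, applied here to limma. They were an unadjusted p under 0.01 and more than 1.5-fold, with 2 or more replicates of some region above a value of 5. The paper states its cut of 5 in a unit it calls normalized RPM, whereas here it was applied to the normalized read count. Of the 13875 genes tested, 13755 met that cut. The SE and p of a region against the pooled others also hold differences among the pooled regions, not only the spread within regions. A gene could be called in more than 1 region here, whereas the paper describes its differential genes as unique to a region. By that rule, 4 members were higher in the OB (10.3%, background 4.15%) and 1 was lower (2.56%, background 3.89%). In the BS, 3 were higher (7.69%, background 3.98%) and 2 lower (5.13%, background 5.05%). In the HC, 1 was higher (2.56%, background 0.281%) and 0 lower (background 1.0%), while 5 of the 39 members had an unadjusted p under 0.05 there and edgeR and DESeq2 on the recovered reads each called 2, Acvr1c as lower beside Tgfb2. The CX had 0 higher (background 1.02%) and 0 lower (background 1.74%), with 2 members, Bmp5 and Gdf10, at an unadjusted p under 0.05 in limma, and edgeR called 0 and DESeq2 2 (Acvr1c and Bmp5). With the adjusted p under 0.05 in place of the unadjusted p, 2 members were left in the OB (Id3 and Inhba, background 4.54%) and 2 in the BS (Acvr1c and Id4, background 5.31%). Of these 4, Id4 stayed under an adjusted p of 0.05 whichever sample was left out.

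These counts moved with single samples. The 8 members that differed across regions became 4 without OB replicate 1, 3 without OB replicate 2, 4 without OB replicate 3, 4 without CX replicate 1 or CX replicate 2 and 5 without BS replicate 3. Acvr1c, Tgfbr3 and Id4 were called across regions whichever sample was left out. The 5 calls in the OB became 2 without OB replicate 1, and the 5 in the BS became 3 without BS replicate 3. The call in the HC, Tgfb2, was joined by Acvr1c without CX replicate 2 and was lost without BS replicate 2 or BS replicate 3. It was replaced by Bmp7 without HC replicate 1, by Tgfbr1 without HC replicate 3 and by Acvr1c without CX replicate 1. The CX gained 1 call without BS replicate 2. Across regions, leaving out a sample also brought in Smad3, Smad5, Tgfb3, Tgfbr1, Gdf10 and the BMP receptors Bmpr1a, Bmpr1b and Bmpr2, none of which was called across regions with all samples.

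The members did not move one way as a family. Among the 39 tested, 22 had a positive difference in OB samples, 19 in HC samples, 16 in CX samples and 19 in BS samples. The median of their log2 differences was 0.03 in OB samples, -0.01 in HC samples, -0.14 in CX samples and -0.05 in BS samples, beside medians over all genes tested of 0.02, 0.02, -0.03 and 0.02. Without regard to sign, the median difference of the members in the BS was 0.53, against 0.38 over all genes. The highest region mean exceeded the lowest by 1.93 times in the median member, from 1.25 times for Smad2 to 12.4 times for Acvr1c, leaving aside Bmp5, for which the CX samples held 2 reads and 0.

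**Figure D1:**
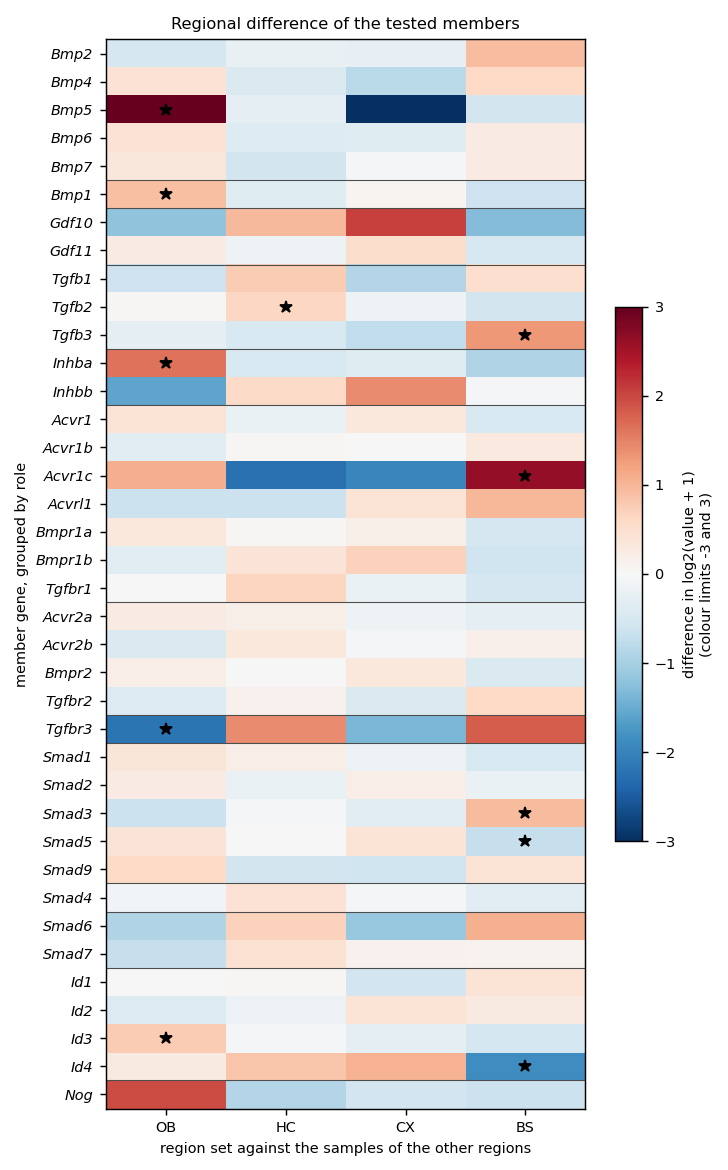
Rows are tested members, grouped by role, and each column is a region. Colour gives the region's mean minus the mean of the samples of the other regions on the log2(value + 1) scale, limited at -3 and 3, and stars mark the calls at an unadjusted p under 0.01 and more than 1.5-fold, of which there are 5 in OB samples, 1 in HC samples, 0 in CX samples and 5 in BS samples.

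Among the ligands, the BMP and GDF genes were mostly low. Bmp10, Bmp8a, Bmp8b, Gdf1, Gdf2, Gdf3 and Inhbe had fewer than 3 reads in every sample and were not detectable at this depth, and Gdf1 is uncertain because its transcript shares the Cers1 locus. A further 11 members were too low to be tested, namely Bmp15, Bmp3, Chrd, Fst, Gdf15, Gdf5, Gdf6, Gdf7, Gdf9, Grem1 and Inhbc. Among these, Gdf7 had values of 18.9, 4.01 and 10.5 in the BS and was listed at 0 in the 8 samples of the other regions, where 3 reads correspond to 1.10 to 4.60. Fst, which encodes the activin-binding protein follistatin, had values of 4.34, 7.89 and 11.3 in the OB. It was listed at 0 in the HC and CX and read 2.10, 0 and 0 in the BS. With no filter on low counts both were called across regions (adjusted p = 0.001277 for Gdf7 and 0.005961 for Fst, limma F-test), Gdf7 also as higher in the BS (adjusted p = 0.0002387) and Fst in the OB (adjusted p = 0.002306). The groups at 0 or at a few reads set the size of those differences, and no fold is given. Groups at 0 in every sample also add no spread, so that the p-values rest on them too. Gdf7 had 25 reads in all, and its value of 4.01 in BS replicate 2 was under the floor of that sample, 6.01.

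Of the BMP ligands that could be tested, Bmp7 was the highest per length of exon, at a mean over regions of 58.5 per kb, followed by Bmp6 at 52.8 per kb. Neither was called across regions. Bmp7 lay between 121 and 312 (adjusted p = 0.30, limma F-test) and Bmp6 between 94.1 and 365 (adjusted p = 0.49). Bmp4 and Bmp2 were lower, with medians of 27.4 and 5.03 over the samples and the highest Bmp4 value, 134, in BS replicate 1.

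Bmp5, a BMP ligand, lies at chromosome 9, 75775364 to 75900310 (GRCm38). Its OB samples read 55.4, 146 and 47.9. The HC samples read 7.50, 12.8 and 12.5, the CX samples 2.51 and 0, and the BS samples 56.8, 0 and 16.8. Every OB sample lay above every HC and CX sample, whereas BS replicate 1, at 56.8, fell within the OB range. Set against the other regions, Bmp5 was higher in the OB by 3.40 ± 1.08 on the log2(value + 1) scale (SE), with an unadjusted p of 0.007245 and an adjusted p of 0.10 in limma. The adjusted p across the 4 regions was 0.04088, and 0.0828 with a pseudocount of 0.25 or 0.07943 with no filter on low counts. Its OB difference was 2.91 (unadjusted p = 0.04563 in limma) without OB replicate 2, the sample that read 146, and 3.26 (unadjusted p = 0.01156) without CX replicate 1. It also failed the 0.01 threshold without OB replicate 1 (0.01786), OB replicate 3 (0.01528) or HC replicate 1 (0.01002), and the adjusted p across regions reached 0.05145 to 0.1638 without any of the OB samples, HC replicate 2 or 3, either CX sample or BS replicate 3. BS replicate 1 also had the largest summed value of the 14 fibroblast and meninges markers, 9978, against 725 to 4712 in the other samples, all 14 with reads. The part of these cells in the Bmp5 level was not tested. Over all annotated exons, 1878 bases of Bmp5 overlap Gm26903 on the opposite strand, for which no value was used here. The exon length used for Bmp5 was 3822 bases. Whether reads were counted by strand is not given in the sources used here. Shorter overlaps of this kind, of 100 to 297 bases with an entry, affect Tgfb2 and Tgfb3 on the opposite strand and Smad5 and Tgfbr3 on the same strand.

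The TGF-beta ligands were all expressed, with Tgfb2 the highest at a mean of 120 per kb of exon, Tgfb3 at 17.7 and Tgfb1 at 12.1. Tgfb2 had values of 888, 704 and 930.5 in HC samples, 584, 661 and 615 in OB samples, 496 and 636 in CX samples and 619, 385 and 413 in BS samples. The 3 HC samples lay above all 8 others. The difference was 0.62 ± 0.19 on the log2(value + 1) scale (SE), with an unadjusted p of 0.006439 and an adjusted p of 0.67 in limma, and the adjusted p across regions was 0.03935 (0.05378 with no filter on low counts). Without HC replicate 1 the unadjusted limma p in the HC was 0.02895, without HC replicate 3 it was 0.0365, and without CX replicate 1 it was 0.01116. Without BS replicate 2 or BS replicate 3 the fold fell under 1.5, to 1.47 and 1.48. The adjusted p across regions reached 0.05003 to 0.1212 without any of the OB or CX samples, HC replicate 1 or 3, or BS replicate 2 or 3.

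Tgfb3 was higher in the BS, at 52.6, 184 and 109, than in the OB at 35.8, 65.5 and 38.8, the HC at 55.0, 44.8 and 28.3 and the CX at 41.5 and 27.6. The lowest BS sample lay inside the range of the OB and HC samples. The BS difference was 1.31 ± 0.38 on the log2(value + 1) scale (SE, unadjusted p = 0.00394, adjusted p = 0.061 in limma), and the F-test across regions did not call it (adjusted p = 0.12). Without BS replicate 2, which read 184, the difference was 0.89 with an unadjusted limma p of 0.04806, and without BS replicate 3 the p was 0.01813. The 12 oligodendrocyte markers, all with reads, summed to 53222 to 91624 in BS samples and 10017 to 40595 elsewhere. Not all went that way: Sox10 was at 45.2 to 139 in BS samples and 168 to 213 in OB samples. The part of these cells in the Tgfb3 level was not tested. Tgfb1 ranged from 10.2 to 67.6 with an adjusted p of 0.43 across regions.

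Inhba, which encodes the beta-A subunit of activin A, was higher in the OB by 1.63 ± 0.38 on the log2(value + 1) scale (SE), or 3.10-fold, with an adjusted p of 0.02604 in limma. Its values were 121, 60.8 and 115 in OB samples, 41.9, 39.3 and 20.5 in HC samples, 26.4 and 41.4 in CX samples and 22.1, 44.1 and 16.8 in BS samples. The lowest OB sample, at 60.8, lay above the highest of the other 8, at 44.1. The OB call at an unadjusted p under 0.01 was kept when any single sample was left out, with differences from 1.46 to 1.95, although its adjusted p rose over 0.05 without OB replicate 1 or OB replicate 3, reaching 0.1586. The adjusted p across regions was 0.04829 and passed 0.05 by a small margin: it was 0.2206 without OB replicate 1, 0.2112 without OB replicate 3, and between 0.05038 and 0.08712 without OB replicate 2, HC replicate 1 or 2, either CX sample, BS replicate 1 or BS replicate 3. It was 0.0546 with a pseudocount of 0.25 and 0.07473 with no filter. Inhbb, the beta-B subunit, read 1.09, 14.2 and 14.0 in the OB and 32.7 and 44.5 in the CX and was not called (adjusted p = 0.22 across regions).

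Bmp1, which despite its name is the procollagen C-proteinase that also cleaves the BMP antagonist chordin, was likewise higher in the OB. It read 161, 118 and 116 there, 76.2, 55.7 and 73.4 in HC samples, 76.6 and 95.1 in CX samples and 45.2, 62.1 and 75.8 in BS samples. All 3 OB samples exceeded all 8 others. The OB difference was 0.91 ± 0.25 on the log2(value + 1) scale (SE, unadjusted p = 0.00288, adjusted p = 0.058 in limma), and without OB replicate 1 it was 0.76 with an unadjusted p of 0.02666. Olfactory sensory neuron markers, whose 10 genes all had reads, summed to 330 to 635 in the OB and to 32.0 to 84.2 elsewhere, with S100a5 at 0 in every sample of the HC, CX and BS. The 10 neuroblast and neural stem cell markers, all with reads, summed to 930.3 to 1220 in the OB and to 189 to 537 elsewhere, with Dlx1 and Dlx2 at 0 in every BS sample. Olfactory ensheathing glia markers were also highest in the OB, at sums of 18728 to 25038 against 4054 to 17042 elsewhere. The part of any of these cells in the OB levels of Bmp1, Inhba and Id3 was not tested.

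Gdf11 and Gdf10 were the GDF ligands that could be tested. Gdf11 ranged from 50.5 to 165. Gdf10 read 129 and 101 in the CX, above every other sample, the next being 73.7 in BS replicate 3. Its CX difference of 2.04 ± 0.92 on the log2(value + 1) scale (SE) had an unadjusted p of 0.04381 and an adjusted p of 0.49 in limma and was not called.

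**Figure D2:**
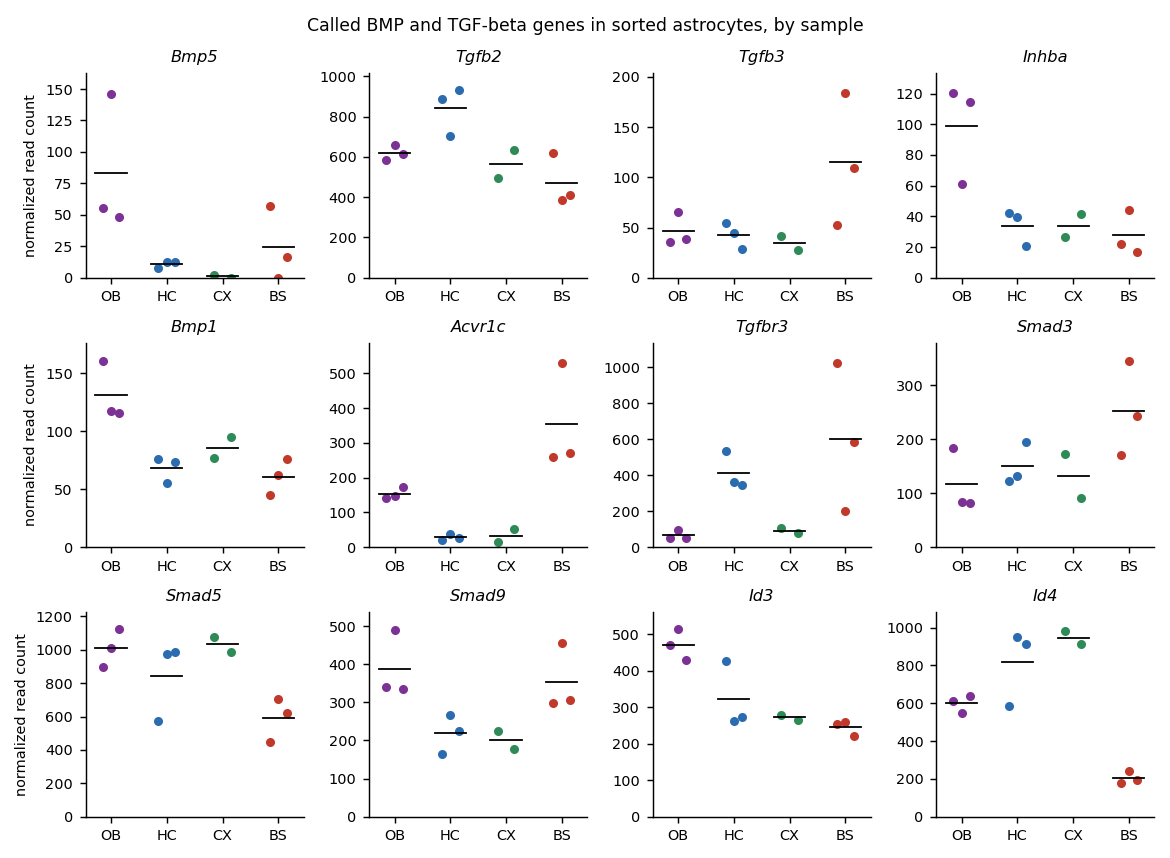
Normalized read count (vertical axis, from 0) of the 12 members called in any comparison, with a point for each sample by region and a bar at the region mean. The Id4 values of the 3 BS samples, 178 to 240, lie below all others, and the Acvr1c values of the BS samples, 261 to 529, lie above all others.

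Per kb of exon the BMP receptors ranked 1, 3 and 5 among all members, with Id2 and Id3 between them. Bmpr2, the type II BMP receptor, came first of all members per kb of exon, at a mean over regions of 474, and the type I BMP receptors Bmpr1a and Bmpr1b reached 376 and 206 per kb. The type I TGF-beta receptor Tgfbr1 was at 41.7 per kb and the type II receptor Tgfbr2 at 17.3. Bmpr2 values lay between 3753 and 7206, Bmpr1a between 1266 and 2848, and Bmpr1b between 435 and 1628, each with its lowest value in BS replicate 1. None of these 3 was called across regions in limma (adjusted p = 0.27, 0.30 and 0.12), and this rested on BS replicate 2. Without that sample all 3 were called (adjusted p = 0.02249, 0.02004 and 0.01345), and in the BS Bmpr2 and Bmpr1a were lower by log2 differences of -0.65 ± 0.17 and -0.79 ± 0.18 (SE, unadjusted p = 0.002135 and 0.0009651 in limma), against -0.43 ± 0.18 and -0.49 ± 0.21 with all samples (unadjusted p = 0.03171 and 0.03118). BS replicate 2 also had the highest Aldh1l1 value of the BS samples, 1256 against 623 and 657, and the highest summed astrocyte markers, 287214 against 97870 and 166840. The part of astrocyte content in these receptor levels was not tested. Without a call, the values do not show that the regions were alike.

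**Figure D3:**
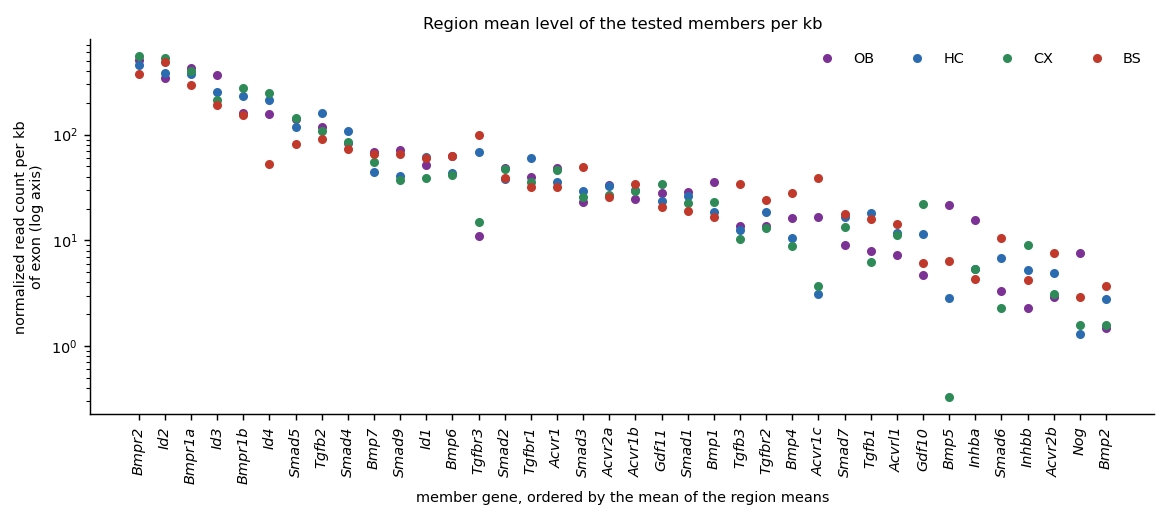
Region mean of the normalized read count per kb of annotated exon (vertical log axis) for tested members, ordered by the mean over regions, with a point for each region. Bmpr2, Id2 and Bmpr1a are the highest, at 474, 437 and 376 per kb, and the regions lie furthest apart for Bmp5 and Acvr1c.

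Of the remaining receptor kinases, all lower per kb than these 3, only Acvr1c was called. Acvr1 ranged from 88.1 to 201, Acvr1b from 94.7 to 210.4 and Acvr2a from 101 to 237. Tgfbr1 lay between 136 and 488 and Tgfbr2 between 87.8 and 309. Acvrl1, known as an endothelial receptor for Bmp10 and Gdf2, ranged from 5.14 to 109, while both of those ligands had no read in any sample. Acvr2b had the lowest level of the type II receptors, with a median of 10.7 and its highest value, 68.1, in BS replicate 2. The ratio of the highest to the lowest region mean was 1.29 to 2.57 over the 4 type II receptors and 1.41 to 12.4 over the 7 type I receptors, the last being that of Acvr1c.

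Acvr1c, also called ALK7, is a type I receptor for activin B, Gdf3 and Nodal, and was the receptor kinase with the largest regional difference. It read 261, 529 and 272 in the BS and 141, 147 and 172 in the OB. In the HC it read 21.9, 37.4 and 26.4, and in the CX 15.1 and 52.1. The BS samples lay above the OB samples, and those lay above every HC and CX sample, with no overlap. Across regions the adjusted p was 5.311e-05 (limma F-test). The BS difference from the pooled others was 2.63 ± 0.68 on the log2(value + 1) scale (SE), or 6.19-fold, with an unadjusted p of 0.001809 and an adjusted p of 0.03905. The adjusted p rose over 0.05 with edgeR (0.06825), with no filter on low counts (0.05146) and with a replicate block (0.06309), and was 0.0509 to 0.1182 without HC replicate 2 or 3, either CX sample or any of the BS samples. Without BS replicate 2, which read 529, it was 2.30 with an unadjusted p of 0.01543, over the 0.01 threshold. Part of the exon sequence, 168 bases, overlaps Gm13544 on the opposite strand, which had values of 0 to 0.625.

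The Acvr1c order held relative to the gene that drives the sort. Per 100 of Aldh1l1, Acvr1c was at 41.3 to 42.1 in BS samples, 14.5 to 17.9 in OB samples, 2.88 to 4.50 in HC samples and 1.15 to 5.00 in CX samples. Markers of oligodendrocyte precursors, 9 of 9 with reads, summed to 488 to 920 in BS samples, 530 to 684 in OB samples, 285 to 502 in HC samples and 345 to 391 in CX samples. None of these 9 was at 0 throughout a region, and they did not move together. Pdgfra was at 102 to 158 in OB samples, 142 to 148 in HC samples, 96.6 to 104 in CX samples and 121 to 162 in BS samples. Sox10, also among the olfactory ensheathing glia markers, was at 168 to 213 in OB samples and 18.7 to 139 elsewhere. Lhfpl3 was at 140 to 497 in BS samples and 31.2 to 179 elsewhere. Olfactory ensheathing glia markers, 12 of 12 with reads, summed to 18728 to 25038 in OB samples, 10640 to 17042 in BS samples, 4054 to 10034 in HC samples and 4306 to 5495 in CX samples, with Prss56 at 0 in every HC and BS sample. The part of either cell type in the Acvr1c level was not tested.

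Tgfbr3, or betaglycan, is a co-receptor that presents TGF-beta, above all Tgfb2, to its receptors and that binds inhibin. It was low in the OB and CX and higher in the HC and BS. Its values were 51.0, 97.1 and 53.3 in OB samples, 104 and 76.7 in CX samples, 533, 362 and 345 in HC samples and 1023, 200.3 and 583 in BS samples. No OB or CX sample reached the lowest HC or BS value, 200.3. The adjusted p across regions was 0.0004499 (limma F-test). In the OB, Tgfbr3 was 4.60-fold lower than in the pooled others, with a log2 difference of -2.20 ± 0.64 (SE), an unadjusted p of 0.003824 and an adjusted p of 0.069 in limma. The unadjusted p was 0.02024 without OB replicate 1 and 0.01934 without OB replicate 3.

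Tgfbr3 values followed those of choroid plexus transcripts over the samples. The 5 samples with Tgfbr3 at or under 104 were the 5 with the lowest choroid plexus sums, 110 to 5265. BS replicate 1 had the highest of both, 1023 and 251844, and BS replicate 2 had the lowest of both within the HC and BS, 200.3 and 53306. The 11 ependymal markers, all with reads, summed to 290 to 954 in BS samples and 248 to 386 in HC samples, against 97.0 to 148 in OB samples and 82.9 to 120 in CX samples, with Tmem212 at 0 in every OB and BS sample. The part of choroid plexus or ependymal RNA in the Tgfbr3 level was not tested.

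**Figure D4:**
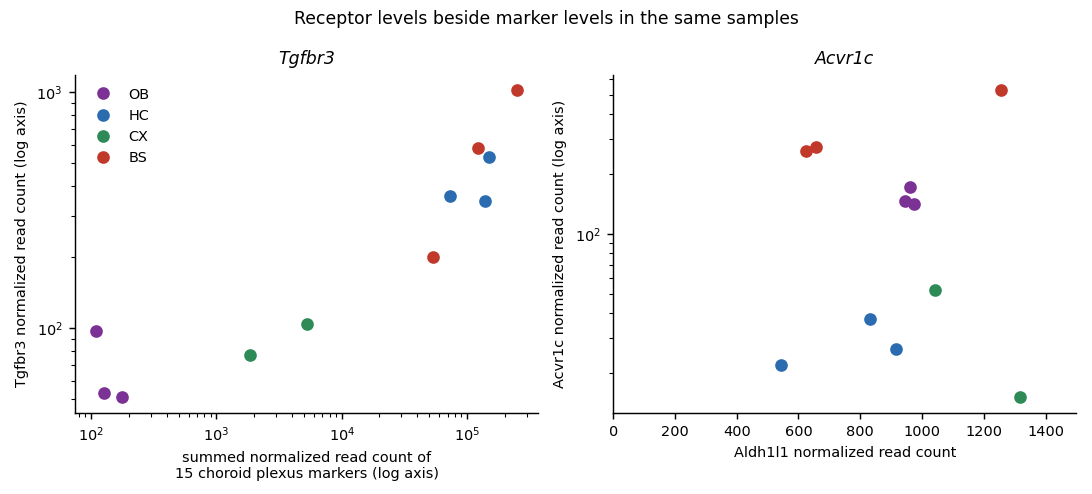
Left, Tgfbr3 normalized read count against the summed value of 15 choroid plexus markers, both on log axes. Right, Acvr1c normalized read count (log axis) against that of Aldh1l1. Each point is a sample, coloured by region: on the left the OB and CX samples form the lower end of both axes, and on the right the 3 BS samples have the highest Acvr1c at Aldh1l1 values from 623 to 1256.

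Smad genes of both branches were expressed in every sample. Per kb of exon, Smad5 was the highest at 121, Smad4 stood at 87.8, Smad9 at 54.1, Smad2 at 43.2, Smad3 at 32.0 and Smad1 at 24.3. Smad1 ranged from 78.8 to 182, Smad2 from 307 to 456 and Smad4 from 230.4 to 427, and none of them was called. The inhibitory Smads, Smad6 and Smad7, ranged from 4.85 to 51.5 and from 16 to 128, with adjusted p of 0.28 and 0.76 across regions in limma.

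Smad5, a BMP Smad, was lower in the BS. It read 448, 703 and 621 there, 897, 1008 and 1121 in OB samples, 572, 975 and 985 in HC samples and 1078 and 987 in CX samples. HC replicate 1 lay among the BS samples, and the 7 remaining samples were higher. The BS difference was -0.69 ± 0.20 on the log2(value + 1) scale (SE), 1.61-fold lower, with an unadjusted p of 0.003768 and an adjusted p of 0.059 in limma. Without BS replicate 1 the fold was 1.42, under the threshold of 1.5, with an unadjusted p of 0.03736. Smad9, the other BMP Smad that differed, was called across regions only. It read 339.9, 489 and 336 in OB samples and 299, 457 and 305 in BS samples, against 164, 268 and 225 in HC samples and 225 and 178 in CX samples, so that the OB and BS samples lay above the HC and CX samples without overlap. Its adjusted p was 0.03283 (limma F-test) and rose to 0.05189 to 0.09499 without any one of the OB samples, HC replicate 1 or either CX sample. The sums of olfactory ensheathing glia markers given with Acvr1c were likewise higher in the OB and BS than in the HC and CX without overlap. Those of oligodendrocyte precursor markers were higher in the OB and BS with HC replicate 2 inside the BS range. Single precursor markers such as Pdgfra overlapped between these regions, as given there. The part of either cell type in the Smad9 level was not tested.

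Smad3, which acts downstream of TGF-beta and activin receptors, was higher in the BS by 0.94 ± 0.31 on the log2(value + 1) scale (SE, unadjusted p = 0.009543, adjusted p = 0.099 in limma). Its values were 170.3, 345 and 244 in BS samples, 185, 83.7 and 81.3 in OB samples, 123, 132 and 195 in HC samples and 173 and 90.5 in CX samples. BS replicate 1, at 170.3, lay inside the range of the other regions. Oligodendrocyte marker sums, given with Tgfb3, were also highest in the BS, and their part in the Smad3 level was not tested. The call was lost without OB replicate 2 or 3, HC replicate 1 or 2, CX replicate 2, or BS replicate 2 or 3, with unadjusted limma p of 0.01347 to 0.07571, and edgeR on the recovered reads gave an unadjusted p of 0.01154.

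The Id genes, which encode dominant-negative helix-loop-helix proteins, differed among themselves. Id2 was the highest per kb of exon at 437, followed by Id3 at 256, Id4 at 167 and Id1 at 53.0. Id4 was lower in the BS than in any other region. It read 178, 240.4 and 196 in BS samples, 610.3, 550.2 and 637 in OB samples, 587, 949.9 and 911 in HC samples and 980.0 and 914 in CX samples. The highest BS value, 240.4, was under the lowest of the other 8, 550.2. The BS difference was -1.88 ± 0.21 on the log2(value + 1) scale (SE), 3.67-fold lower, with an adjusted p of 0.0001518 in limma, and the adjusted p across regions was 1.129e-05. Both calls were kept when any single sample was left out, with BS differences from -2.0 to -1.78. The GGCGCC window printed above for Id4 belongs to this gene, which lies on chromosome 13 from 48261228 to 48266026.

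The lower Id4 level in the BS was also seen relative to Aldh1l1. Per 100 of Aldh1l1 it was at 19.1 to 29.8 in BS samples, 58.3 to 66.3 in OB samples, 99.4 to 114 in HC samples and 74.4 to 87.6 in CX samples. The astrocyte markers did not move together in the BS, and Slc1a2 makes up most of their sum. Slc1a2, a glutamate transporter, was at 61764 to 208927 in BS samples and 162749 to 541892 elsewhere, and the related Slc1a3 at 1953 to 6315 against 14218 to 33551. S100b was at 3030 to 6281 in BS samples and 1638 to 3932 elsewhere, and Aqp4 at 9275 to 20767 against 5077 to 13521. The part of astrocyte content in the Id4 level was not tested. Of the exon sequence of Id4, 82 bases overlap A330033J07Rik on the opposite strand, which had values of 0 to 7.54, and 171 bases overlap Gm49291 on the opposite strand, for which no value was used here.

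Id3 was higher in the OB by 0.77 ± 0.18 on the log2(value + 1) scale (SE), or 1.70-fold, with an adjusted p of 0.02653 in limma. Its values were 470.2, 514 and 429 in OB samples, 427, 263 and 274 in HC samples, 280.2 and 265 in CX samples and 254, 258 and 221 in BS samples. Every OB sample lay above all others, with HC replicate 1 at 427 close under the lowest OB sample at 429. The OB call at an unadjusted p under 0.01 was kept when any single sample was left out (0.70 to 0.86), although its adjusted p rose over 0.05 without any of the OB samples, reaching 0.152. The adjusted p across regions was 0.0194 and rose to 0.07501 without OB replicate 1, 0.09285 without OB replicate 2 and 0.05252 without BS replicate 3. Id2 and Id1 were not called. Id2 read 966, 646 and 905 in OB samples, 755, 1032 and 1028 in HC samples, 1118 and 1463 in CX samples and 815, 1476 and 1288 in BS samples (adjusted p = 0.26 across regions). Id1 ranged from 23.9 to 139, with the highest value in HC replicate 1 and ranges that overlapped between all regions (adjusted p = 0.82).

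Relative to Aldh1l1, separations of other genes by region no longer held for every sample. HC replicate 1 had the lowest Aldh1l1 value, 542, against 623 to 1317 in the other samples. Per 100 of Aldh1l1, Id3 was at 78.7 in that sample, above the OB samples at 44.7 to 54.5. HC replicates 2 and 3 were at 31.6 and 30.0, under the OB range. Inhba was at 7.72 in HC replicate 1 and 6.44 to 12.4 in the OB, and Bmp1 at 14.1 and 12.1 to 16.5, each inside the OB range. Tgfb2 was at 84.5 to 164 in HC samples with BS replicate 1 at 99.3 among them, and Smad5 in BS replicate 3, at 94.6, reached the OB range of 92.1 to 117. The separation of Smad9 was kept, with 34.9 to 51.9 in OB and BS samples and 17.1 to 32.1 in HC and CX samples, as was that of Tgfbr3, with at least 15.9 in HC and BS samples and at most 10.3 in OB and CX samples. Smad3 in the BS, at 27.3 to 37.2, lay above all other samples, at 8.47 to 22.7, on this scale.

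The secreted antagonists Nog, Chrd and Grem1 had low values. Nog, which encodes the BMP antagonist noggin, read 8.69, 10.3 and 19.4 in the OB and 1.25, 2.74 and 2.57 in the HC. The CX samples read 3.77 and 1.53 and the BS samples 12.6, 0 and 2.10, and the gene was not called in the OB (unadjusted p = 0.02023, adjusted p = 0.18 in limma). Chrd and Grem1 had highest values of 9.54 and 4.57 and were not tested.

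Other genes of the pathway, 76 by a list that leaves the members out, were read with the same tests. Of the 63 tested, 15 differed across the 4 regions in limma, or 23.8% against 16.5% of all genes. They included 10 of the 23 tested extracellular modulators and activators of latent TGF-beta, 2 of 9 co-receptors and membrane modulators, 2 of 12 transcriptional targets, 1 of 17 intracellular regulators and 0 of 2 other ligands. By the rule for a region, 6 were higher and 3 lower in OB samples, 0 higher and 2 lower in HC samples, 0 higher and 3 lower in CX samples, and 2 higher and 6 lower in BS samples. As shares of the 63, the OB counts were 9.52% higher (background 4.15%) and 4.76% lower (3.89%), and the BS counts 3.17% higher (3.98%) and 9.52% lower (5.05%). The lower calls were 3.17% in the HC (background 1.0%) and 4.76% in the CX (1.74%), beside backgrounds of 0.281% and 1.02% for the 0 higher calls in these regions.

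Chrdl1, a secreted BMP antagonist related to chordin that astrocytes are known to release, had the lowest p of the list across regions (adjusted p = 3.065e-12, limma F-test). It read 2879, 2719 and 3111 in OB samples, 2618 and 2277 in CX samples, 262, 406 and 346 in HC samples and 5.26, 4.01 and 6.31 in BS samples. No region overlapped another, and the BS difference was -7.66 ± 0.77 on the log2(value + 1) scale (SE, adjusted p = 6.557e-05 in limma). All alternatives and left-out samples kept that call, with left-out values from -7.97 to -7.47. Per 100 of Aldh1l1, Chrdl1 was at 0.319 to 0.962 in BS samples, 37.7 to 48.7 in HC samples, 199 to 218 in CX samples and 288 to 324 in OB samples.

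Other secreted modulators took other orders. Bmper, which binds BMPs outside the cell, read 142, 102 and 117 in the OB and 12.6, 30.1 and 6.31 in the BS (adjusted p = 0.003048 across regions, limma F-test), where it was lower than in the pooled others by a log2 difference of -2.35 ± 0.49 (SE). Sostdc1, a BMP and Wnt antagonist that is itself among the 15 choroid plexus markers, read 0, 3.16 and 0.539 in the OB and 28.9 and 9.20 in the CX. It reached 883, 328 and 632 in the HC and 1509, 186 and 817 in the BS (adjusted p = 1.97e-06). Nbl1, another antagonist, read 101, 100.3 and 151 in the OB and 36.9, 26.5 and 20.5 in the HC (adjusted p = 0.009289, and 0.05529 without OB replicate 3). Fstl5, a follistatin-like gene, read 72.8, 231 and 112 in the OB and no more than 28 in any other sample (adjusted p = 0.001514).

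Of the genes that store, release or activate latent TGF-beta, Ltbp1, Ltbp2 and Itgav were called across regions, whereas Ltbp3, Ltbp4, Itgb8, Thbs1, Lrrc32 and Nrros were not (adjusted p = 0.17 to 0.89 in limma). Ltbp1, a latent TGF-beta binding protein, read 693, 764 and 899 in OB samples, 659.6 and 432 in CX samples, 276, 394 and 336 in HC samples and 117, 124 and 130.5 in BS samples (adjusted p = 3.115e-06 across regions, limma F-test). The BS samples were the lowest of all. Ltbp2 read 109.7, 30 and 61.9 in the OB, was listed at 0 in every HC and CX sample and reached 2.10 in the BS (adjusted p = 0.0004611). Itgav, the integrin subunit that takes part in TGF-beta activation, read 1707, 1611 and 1952 in the OB and 4192 and 3852 in the CX (adjusted p = 0.006813).

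Within cells and at the membrane, Skil, a Smad corepressor, read 702, 551 and 674 in BS samples, 331, 272 and 281 in OB samples, 560.3, 373 and 197 in HC samples and 134 and 195 in CX samples (adjusted p = 0.003805, limma F-test). HC replicate 1 lay inside the BS range. Its BS difference was 1.25 ± 0.33 on the log2(value + 1) scale (SE), and the call in the BS was lost without BS replicate 1 or BS replicate 3. Tdgf1, a co-receptor for Nodal, read 51.5, 70.1 and 168 in the BS and no more than 27.5 elsewhere (adjusted p = 0.00455). Pmepa1, which restrains TGF-beta signalling at the membrane, read 505, 346 and 316 in OB samples and 391, 433 and 286 in BS samples, against 213, 149 and 149 in HC samples and 185 and 199 in CX samples (adjusted p = 0.003621). Msx1, a homeobox target of BMP signalling, read 36.2, 21.0 and 21.3 in HC samples and 49.4, 12 and 21.0 in BS samples but at most 5.53 in any OB or CX sample (adjusted p = 0.007494), so that it was higher in the regions with the larger choroid plexus sums.

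**Figure D5:**
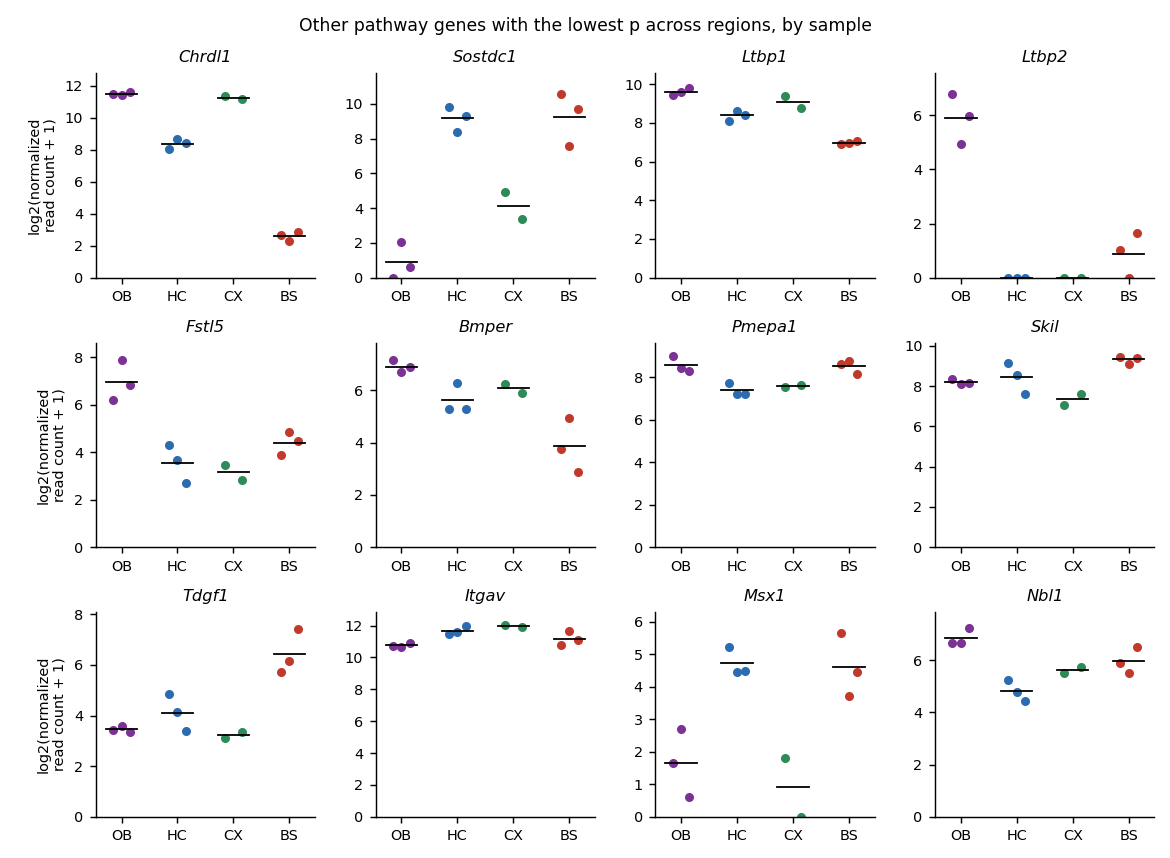
The 12 other pathway genes with the lowest p across regions, on the log2(normalized read count + 1) scale from 0, with a point for each sample and a bar at the region mean. Chrdl1 spans from 4.01 to 6.31 in BS samples to 2719 to 3111 in OB samples, and Sostdc1 and Msx1 are high in the HC and BS samples.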

How the data were processed

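Libraries of sorted astrocytes, 11 in all, were analysed. The authors made libraries from 5 ng of total RNA with a kit that depletes ribosomal RNA, mapped reads with STAR 2.5.0a to mm10, built count tables from UCSC transcripts and scaled these with DESeq2 1.20.0. The deposited unit is a normalized signal, the read count of a gene divided by a size factor per sample, and 100% of the values were whole multiples of a step, from which reads were recovered. Strand-specific counting is not given in the sources used here.

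Genes were filtered with edgeR's filterByExpr on recovered reads, leaving 13875, and tested two-sided with limma 3.58.1 (R 4.3.3), its variance prior following the mean, on log2(value + 1), by a moderated F-test across regions and by each region against the other samples pooled. A fold on that scale understates the change of low genes. Adjusted p-values follow Benjamini and Hochberg over all genes tested. Alternatives were edgeR 4.0.16 with TMM factors, DESeq2 1.42.0, log2 CPM with TMM factors, a pseudocount of 0.25, no filter, a mean for each region, adjusted p-values, the replicate number as a block and leaving out each sample. Same-numbered samples of different regions deviated together in 3 of 15 pairs (correlation over 0.1, range -0.16 to 0.25), so that the numbers were not taken as pairs. Between the OB and HC, however, same-numbered samples correlated at 0.195, 0.074 and 0.25, and differently numbered ones at -0.22 to 0.028. Whether same-numbered samples shared an animal or a batch is not given in the sources. Simulated data in which 200 genes were changed served to check the scripts. Members called in any comparison, the Id genes, receptors and Smads are named, with at most 12 other pathway genes in the order of their p. Values of 1 member and 1 marker gene, counted in the totals, are not reported here. The members, gene lists and tests were chosen with earlier results of these data known. Coordinates are those of GRCm38 in GENCODE. Exon lengths join the exons of protein-coding transcripts in the GENCODE basic set, and overlaps between genes used all annotated exons. Python 3.11.15 was used for tables and plots.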

Additional observations from a re-analysis of the deposited data

How the results depend on the processing

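The counts of calls moved with single samples and with some of the alternatives. Members that differed across regions numbered 8, and 3 to 11 when single samples were left out. In the OB the 5 calls became 2 with adjusted p-values and 2 to 6 with samples left out. In the HC the single call became 0 with adjusted p-values, 2 with edgeR or DESeq2, 0 with a replicate block, 4 with a mean for each region and 0 to 2 with samples left out. In the CX the 0 calls became 2 with DESeq2, 4 with a mean for each region and 0 to 1 with samples left out. In the BS the 5 calls became 2 with adjusted p-values and 3 to 6 with samples left out. The 15 other pathway genes stayed within 12 to 20 under every alternative run. Besides the HC call, the replicate block left the Bmp5 call in the OB (unadjusted p = 0.01055 in limma), the Smad3 call in the BS (unadjusted p = 0.01654), the Inhba and Tgfb2 calls across regions (adjusted p = 0.05472 and 0.05342) and the region calls of Pmepa1 and Itgav short of their thresholds. Over the named genes, 405 of the 495 values with a sample left out and 292 of the 320 values under other alternatives kept their direction and their side of the threshold, the others fell short of it, and 0 reversed. These values pool the called members with the 12 other pathway genes of lowest p, which were picked from these same data. The shares therefore do not describe the members alone. The CX has 2 samples, and a difference there had to be larger to pass. In the BS, 3098215 and 2830746 reads in replicates 2 and 3 put the floor of 3 reads at 6.01 and 6.31, so that values under these, such as those of Nog in both and of Chrdl1 in replicate 2, are not distinct from absence.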
